A study of Mus musculus with 4 samples.

Results

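The genes described here are 30 members of the pathways that make cholesterol and fatty acids, measured across the cell types of mouse liver tumour tissue. They were taken by name from a table of 17813 genes in 24802 single cells, and all 30 were present. By role they comprise 15 enzymes of sterol synthesis, 3 genes of sterol regulation and transport, 9 genes of fatty acid synthesis and 3 genes of triglyceride assembly and lipid droplets.

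The samples came from C57BL/6 mice of 2 genotypes, with 2 samples each: Miz1F/F, the floxed control, and Miz1Δhep, in which the labels place the Miz1 deletion in hepatocytes without naming the Cre line. Every mouse of both genotypes received diethylnitrosamine (DEN, 25 mg/kg) into the peritoneum in week 2 after birth and then carbon tetrachloride (CCl4, 0.5 ml/kg in corn oil) each week, and was killed at 5 months, so there is no group without carcinogen. The whole tumour-bearing liver tissue was digested and loaded live onto a droplet controller (10x Genomics, 3′ chemistry, version 2), so the cells are those that survived digestion. The labels do not say how many mice were pooled per sample or whether tumour and surrounding liver were separated.

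The cells carry 4 barcode suffixes, called sets 1 to 4 here, and no source used here ties a set to a sample or a genotype. The table was therefore treated as 1 pooled sample. Values are given for each set, as a median or range over sets, or pooled over sets. Sets were not treated as replicates, and the genotypes could not be compared. Sets held between 2574 and 11179 cells and between 9093921 and 35033778 unique molecular identifiers (UMIs, 1 per captured RNA molecule), and 373 barcodes occurred in more than 1 set. Cells were clustered, and 15 classes were called from marker genes, among them 1183 hepatocyte-like cells (238, 370, 55 and 520 in sets 1 to 4), 676 Sox9 epithelial cells (18, 205, 250 and 203), 2020 Kupffer-like cells and 6699 B cell-like cells. The hepatocyte-like class joined a cluster led by Alb, Serpina1e and Serpina3k with a cluster led by Gsta1, Fabp1 and Gstm3, and the Sox9 epithelial cluster was led by Tm4sf4, Clu, Sprr1a, Krt8 and Sox9. A level below is the UMIs of a gene per 1000000 UMIs of a class in 1 set (CPM), and a class enters with a set only where it has at least 20 cells there, which leaves Sox9 epithelial cells with sets 2 to 4. The chemistry counts 1 end of each RNA, so levels were not divided by gene length. In a tissue measured this way, fewer RNA molecules per cell and a lower share among all RNA cannot be told apart.

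Cholesterol is built from acetyl-CoA by way of mevalonate, isoprenoid diphosphates, squalene and lanosterol, and the liver is a main site of this synthesis. The membrane-bound transcription factor Srebf2 is cut and released when sterols in the endoplasmic reticulum are low and drives the genes of the whole route, while Insig1 holds its escort protein back when sterols are plentiful. Fatty acid synthesis starts from citrate, which Acly cleaves to acetyl-CoA; Acaca, Fasn and the elongases lengthen the chain, Scd1 adds a double bond, and Srebf1 drives these genes in response to insulin.

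The promoters of 4 of the members most abundant in hepatocyte-like cells are shown because the binding of sterol regulatory factors is classically mapped just before the start site of such genes. The windows are RefSeq sequences on GRCm38.p6, 250 bases before to 50 bases after the start site, written 5′ to 3′ on the strand of the gene. Windows were found for 24 of the 30 members. Capitals mark each match, on either strand, to the sterol element searched for (TCACNCCAC) or to the CCAAT box (CCAAT), with no base shared between the motifs in these 4 windows.
Hmgcs1 promoter, plus strand, chr13:119690101-119690400: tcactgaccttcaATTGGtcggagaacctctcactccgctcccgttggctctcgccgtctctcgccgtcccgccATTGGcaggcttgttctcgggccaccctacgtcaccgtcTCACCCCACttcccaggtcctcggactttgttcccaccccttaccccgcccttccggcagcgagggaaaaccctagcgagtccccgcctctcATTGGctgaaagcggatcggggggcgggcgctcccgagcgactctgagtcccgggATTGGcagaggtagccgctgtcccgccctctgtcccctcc
Idi1 promoter, plus strand, chr13:8885356-8885655: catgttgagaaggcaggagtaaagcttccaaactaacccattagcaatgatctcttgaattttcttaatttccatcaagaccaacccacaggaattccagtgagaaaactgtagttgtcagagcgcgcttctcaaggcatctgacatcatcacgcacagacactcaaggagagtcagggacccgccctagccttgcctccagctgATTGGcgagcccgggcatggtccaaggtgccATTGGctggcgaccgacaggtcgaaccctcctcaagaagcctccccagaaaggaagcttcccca
Insig1 promoter, plus strand, chr5:28071162-28071461: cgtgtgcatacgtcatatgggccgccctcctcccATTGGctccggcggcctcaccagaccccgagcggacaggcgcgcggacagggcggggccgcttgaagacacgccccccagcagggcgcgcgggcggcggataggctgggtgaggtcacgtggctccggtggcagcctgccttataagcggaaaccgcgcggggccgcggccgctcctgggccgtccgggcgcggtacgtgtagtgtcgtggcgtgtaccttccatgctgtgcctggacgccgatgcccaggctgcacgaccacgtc
Sc5d promoter, minus strand, chr9:42264251-42264550: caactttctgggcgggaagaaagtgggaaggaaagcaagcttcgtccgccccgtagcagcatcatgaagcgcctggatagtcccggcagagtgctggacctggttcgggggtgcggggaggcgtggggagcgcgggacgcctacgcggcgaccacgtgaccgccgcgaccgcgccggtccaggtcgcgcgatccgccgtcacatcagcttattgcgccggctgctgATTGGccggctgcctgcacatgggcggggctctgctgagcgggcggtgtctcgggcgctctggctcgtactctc
The sterol element was found in 1 of the 24 matched members, Hmgcs1, where the match begins 137 bases before the start site, and in 1.44% of all 27025 genes with a window. A CCAAT box was found in 22 of the 24 matched members, among them all 14 matched members of sterol synthesis and regulation, and in 41.1% of all genes. The E-box CACGTG was found in Dhcr7, Elovl5, Insig1 and Sc5d, 4 of the 24, and in 8.09% of all genes. A match is a description of these letters and not a measured binding site. Only exact matches were counted. The Srebf2 window, which comes within 1 base of the sterol element, therefore counts as having none, and a window without a match cannot be said to lack such an element.

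Hepatocyte-like cells held the highest level of most of these genes. Of the 28 members that reached 20 CPM in at least 1 class, 25 were highest in hepatocyte-like cells by their median over sets, whereas 8.44% of all 10019 genes that reached 20 CPM were highest there. All 15 sterol synthesis enzymes belonged to the 25, and 14 of them were highest in hepatocyte-like cells in each of the 4 sets; the exception, Dhcr7, which carries out the last reduction to cholesterol, was highest there in 3. The members highest elsewhere were Srebf2, Srebf1 and Me1. The members that did not reach 20 CPM anywhere were Gpam, which starts glycerolipid synthesis, at a median of 5.62 CPM in hepatocyte-like cells, and the lipid droplet protein Pnpla3, with 2 UMIs in all hepatocyte-like cells.

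**Figure D1:**
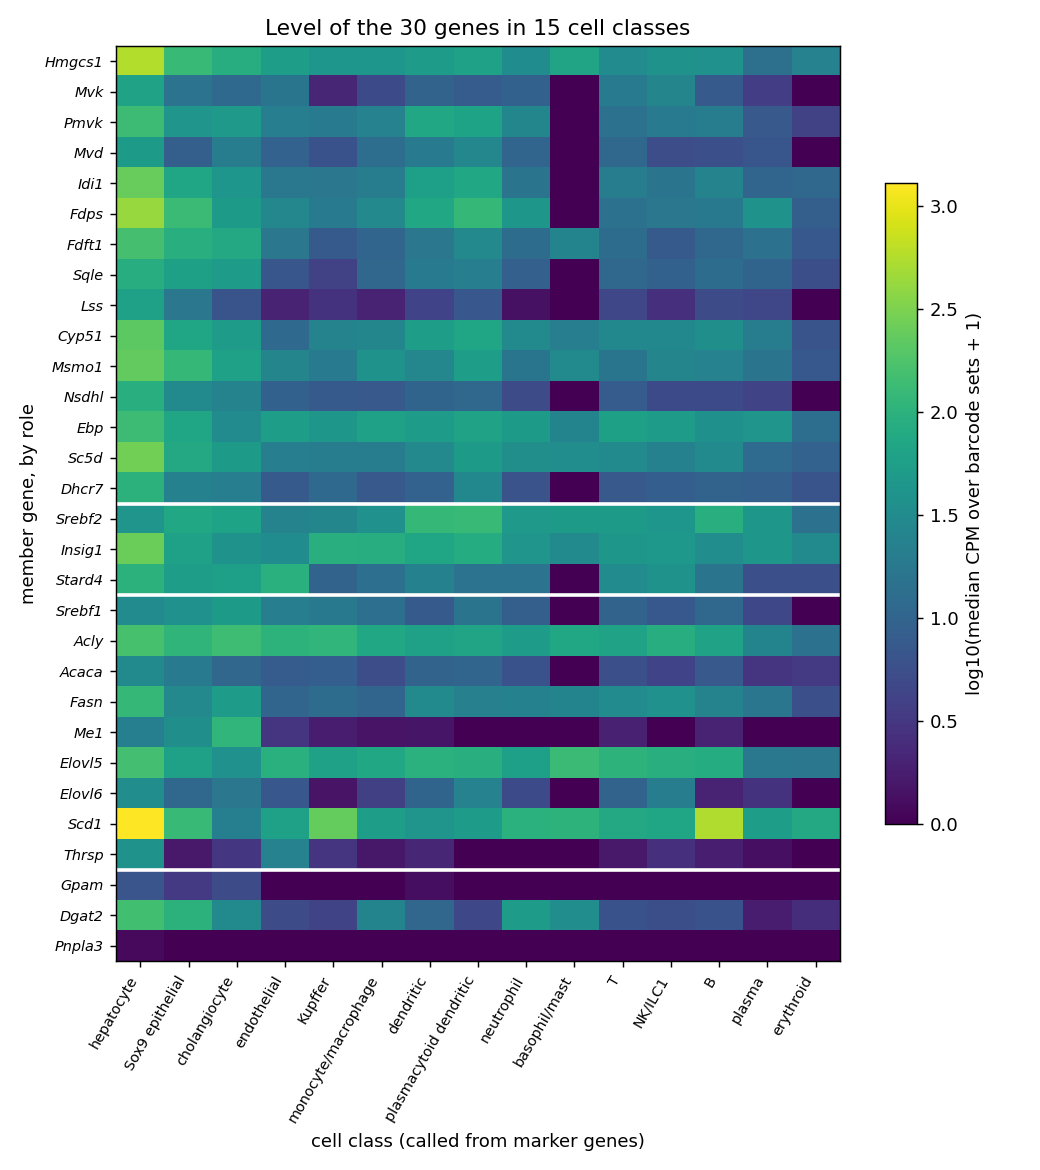
Median level over barcode sets of each of the 30 genes (rows, grouped by role with white lines between roles) in 15 cell classes (columns), on a log10(CPM + 1) colour scale. The hepatocyte column is the brightest for most rows; Scd1 is also bright in B cells and Kupffer cells, and Srebf2 in dendritic cells.

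In the mevalonate arm, which runs from acetyl-CoA to farnesyl diphosphate, 2 genes stood above the rest. Hmgcs1, the cytosolic synthase that makes the substrate of the rate-limiting step (chr13:119690379-119708260, GRCm38), lay at 220, 558, 1308 and 570 CPM in hepatocyte-like cells of sets 1 to 4. Fdps, farnesyl diphosphate synthase (chr3:89093588-89101959), lay at 350, 356, 503 and 585 CPM. By median the next class was Sox9 epithelial cells, at 124 CPM for Hmgcs1 and 130 CPM for Fdps; in sets 1 and 4 plasmacytoid dendritic cells held Fdps at 209 and 154 CPM. Idi1, which isomerises isopentenyl diphosphate (chr13:8885501-8892451), lay at 103, 269, 417 and 218 CPM. The kinases and the decarboxylase between them were lower: the median over sets was 134 CPM for Pmvk, 60.8 CPM for Mvk and 48.0 CPM for Mvd, and these 3 varied less between sets, Pmvk from 124 to 152 CPM.

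In the squalene and post-squalene arm, Sc5d, the sterol desaturase that acts late in the route (chr9:42251595-42264256), was the most abundant, at 149, 263, 538 and 303 CPM in sets 1 to 4 of hepatocyte-like cells. The demethylation enzymes Msmo1 and Cyp51 followed at medians of 233 and 215 CPM. Fdft1, which makes squalene, had a median of 154 CPM, and the isomerase Ebp a median of 135 CPM. Medians were under 100 CPM for Dhcr7 at 97.6 CPM, the decarboxylating dehydrogenase Nsdhl at 91.6 CPM, the squalene epoxidase Sqle at 86.0 CPM and the lanosterol synthase Lss at 59.3 CPM. Set 1 was the lowest of the 4 for each of these 9 genes except Ebp, which was lowest in set 2.

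Among the regulators, Insig1 (chr5:28071363-28078662) lay at 116, 204, 469 and 314 CPM in hepatocyte-like cells, and the sterol carrier Stard4 at 46.0, 134, 214 and 64.0 CPM. Srebf2 did not follow its targets across cell types. Its transcript lay at 34.9, 48.1, 75.2 and 34.6 CPM in hepatocyte-like cells, the eleventh of 15 classes by median, and at 89.3, 151, 206 and 95.7 CPM in plasmacytoid dendritic cells, the highest class. Dendritic cells were next at 71.5, 154, 142 and 93.5 CPM, a range that overlapped that of plasmacytoid dendritic cells, so the order of the leading pair was not separated beyond the spread of sets.

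Of the fatty acid genes, Scd1 (chr19:44394455-44407879) had the highest median of all 30 members in hepatocyte-like cells, at 349, 1334, 2291 and 1252 CPM in sets 1 to 4; in set 1 it was level with Fdps at 350 CPM. Acly had a median of 158 CPM in hepatocyte-like cells, the elongase Elovl5 152 CPM, Fasn 117 CPM, the elongase Elovl6 32.8 CPM and Acaca, which makes malonyl-CoA, 29.1 CPM. Thrsp, a lipogenic nuclear protein, had a median of 37.9 CPM, with endothelial cells second at 22.9 CPM and every other class under 5 CPM. The diacylglycerol acyltransferase Dgat2, which completes triglycerides, was even between sets, at 114, 164, 168 and 131 CPM. Srebf1 and the malic enzyme Me1, a source of NADPH, were instead highest in the cholangiocyte-like cells, of which there were 97. Srebf1 lay at 45.1 and 51.1 CPM there in sets 3 and 4, from 7 and 12 UMIs, and at a median of 30.4 CPM in hepatocyte-like cells. Me1 lay at 70.9 and 149 CPM in cholangiocyte-like cells, from 11 and 35 UMIs, and at a median of 21.1 CPM in hepatocyte-like cells.

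**Figure D2:**
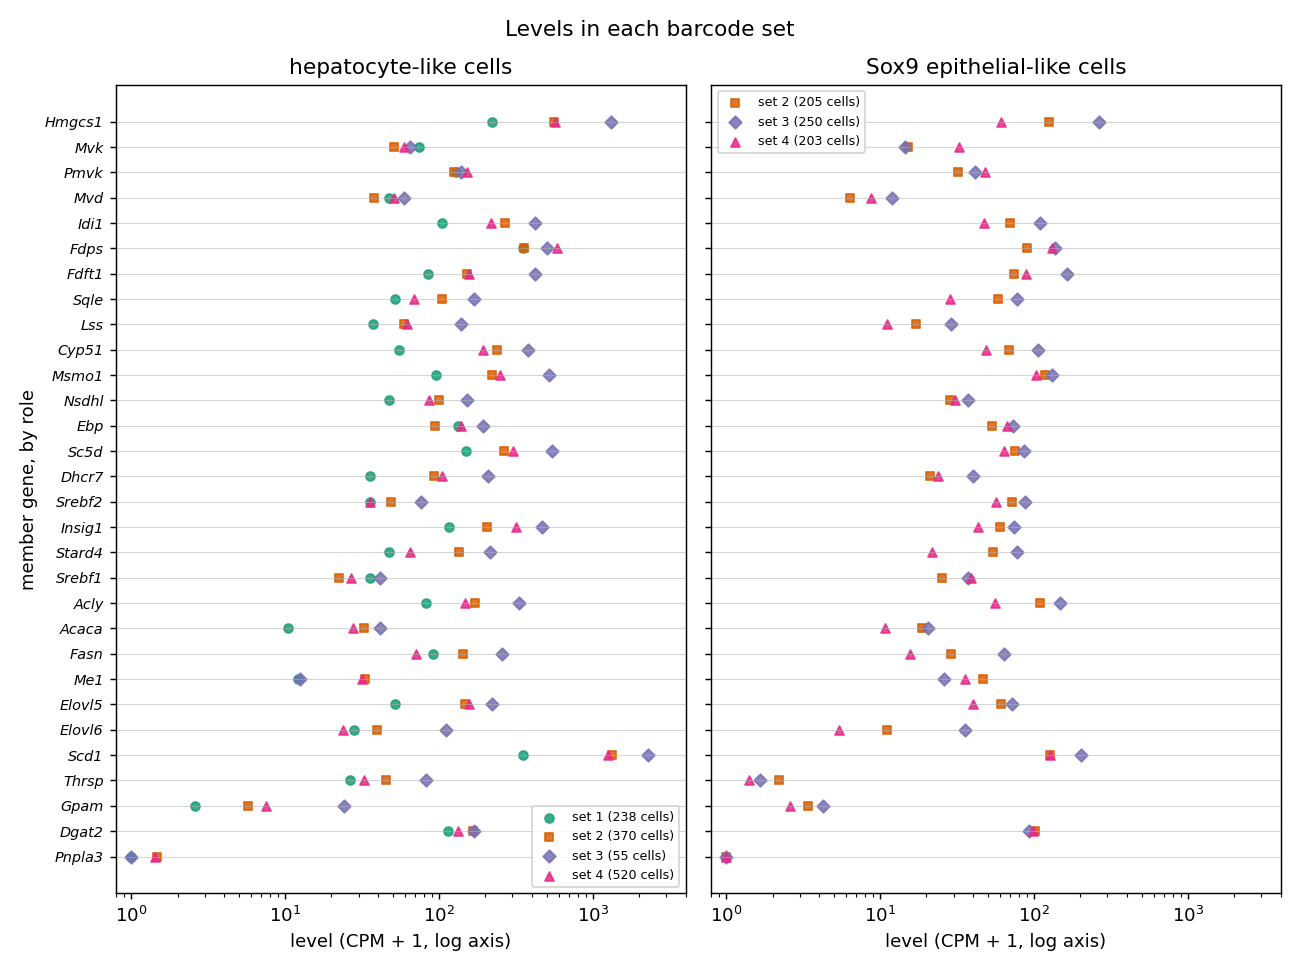
Level of each of the 30 genes (vertical axis) in each barcode set, on a log CPM + 1 axis, in hepatocyte-like cells (left, 4 sets) and Sox9 epithelial cells (right, the 3 sets with at least 20 cells). Each point is 1 set. Set 3 lies furthest right for most genes in both panels, and most genes lie further left in Sox9 epithelial cells.

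The sets differed in hepatocyte-like cells, and mostly in 1 order. Of the 28 members with a mean of at least 20 CPM over the sets, 24 were highest in set 3, 1 each in sets 1 and 2, and 2 in set 4; of all 4497 genes past that filter, 37.8% were highest in set 3, 22.1% in set 1, 17.5% in set 2 and 22.6% in set 4. The lowest level was in set 1 for 20 of the 28, in set 2 for 5, in set 4 for 3 and in set 3 for 0, against 45.1%, 17.3%, 11.8% and 25.8% of all genes. Set 3 rests on 55 hepatocyte-like cells with 172824 UMIs, and set 1 on 238 cells with 631121 UMIs. The makeup of the class differed too: cells of the Alb-led cluster, described at the end, gave 67.8%, 85.7%, 82.0% and 75.0% of its UMIs in sets 1 to 4. Within that cluster alone, which has 22 cells in set 3, 26 of 27 members past the filter were highest in set 3 and 19 lowest in set 1, against 41.4% and 50.3% of all 4545 genes. The Gsta1-led cluster, with 33 cells in set 3, was less uniform. There 12 of 24 members past the filter were highest in set 3 and 9 in set 2. The shares of all 4005 genes were 34.3% and 18.2%. Lowest levels fell in set 1 for 18 members and in set 3 for 5, against 29.2% and 31.6% of all genes. In Sox9 epithelial cells, where the sets held 203 to 250 cells each, 18 of 22 members past the filter were highest in set 3, 2 in set 2 and 2 in set 4, against 43.2%, 27.7% and 29.1% of all 5638 genes. The lowest level there was in set 4 for 13 of the 22, in set 2 for 7 and in set 3 for 2, against 49.3%, 26.8% and 23.9% of all genes. Whether these differences follow genotype, mouse or handling cannot be told apart, because the sets are not mapped to samples.

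Sox9 epithelial cells, which carry the duct and progenitor marker Sox9 with keratins 8 and 18, held nearly every one of these RNAs at a lower share of all their RNA than hepatocyte-like cells. They were also deeper, with a median of 7638 UMIs per cell against 1601. Counted as UMIs per cell over all sets, 21 of the 30 members were still lower in Sox9 epithelial cells and 9 were not. The 9 included Dgat2 (0.837 against 0.634), Acly (0.837 against 0.677), Fdft1, Sqle and Ebp. Only 3 members had at least as many UMIs per Sox9 epithelial cell in every usable set, so the 9 did not all hold set by set. The 21 did not all hold either, since Mvk had more UMIs per Sox9 epithelial cell in set 4. How many of the 21 were lower in every set was not counted. UMIs per cell were not counted this way over all genes, so 21 of 30 cannot be set against a usual share. The levels that follow are shares. Over the 3 sets with enough cells of both, 26 of the 30 members were lower in every set and 2, Srebf2 and Me1, were higher in every set. At least 2-fold in every set, 17 members were lower and 0 higher, of 28 that passed a filter of 20 CPM; 4.73% of all 5280 genes tested were lower by that rule and 5.44% higher. The median log2 ratio of the 30 genes was -1.41, between -1.60 and -1.27 by set, and that of all genes was 0.28. Immediate early genes, which tissue digestion can induce, moved with this difference: 11 of 11 were at least 2-fold higher in Sox9 epithelial cells in every set (median log2 ratio 2.24), and 5 of 6 heat shock genes were higher in every set (0.86). Their part in the result was not tested. Ratios are log2 of levels after adding 10 CPM, which understates the difference for genes of low level.

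The sterol synthesis enzymes were all lower in every set, with 10 of 15 at least 2-fold lower throughout. Scd1 differed most of the 30: it lay at 126, 200 and 126 CPM in Sox9 epithelial cells of sets 2 to 4 and at 1334, 2291 and 1252 CPM in hepatocyte-like cells, a median log2 ratio of -3.30. Insig1 lay at 58.8, 73.5 and 42.0 CPM against 204, 469 and 314 CPM, a log2 ratio of -2.52. The ranges of the cell types did not overlap for either gene. Hmgcs1 lay at 124, 265 and 60.1 CPM in the Sox9 epithelial cells of sets 2 to 4, a log2 ratio of -2.26, and Sc5d at 74.2, 84.5 and 62.6 CPM, a log2 ratio of -2.11. Fdps lay at 88.5, 136 and 130 CPM, a log2 ratio of -1.89. Thrsp, with 2, 1 and 1 UMIs in the 3 sets, was close to the limit of detection in Sox9 epithelial cells, and its log2 ratio of -2.28 depends on the 10 CPM added.

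Some members differed less between the epithelial classes. Dgat2 lay at 100, 92.2 and 98.1 CPM in Sox9 epithelial cells, a log2 ratio of -0.66, so that Sox9 epithelial cells kept the second-highest level of this gene among the 15 classes. Fdft1, Sqle, Ebp, Msmo1, Acly and Acaca had log2 ratios between -1.21 and -0.78 and missed the 2-fold rule in at least 1 set. Srebf2 was at a log2 ratio of 0.47 and Me1 of 0.41, while Srebf1, at 0.13, was not of 1 sign. Of the 39 other genes of these pathways that were listed, 10 met the 2-fold rule downwards and 0 upwards, among them the desaturase Scd2, at -1.38, and the acyl-CoA synthetase Acsl5, at -1.26.

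**Figure D3:**
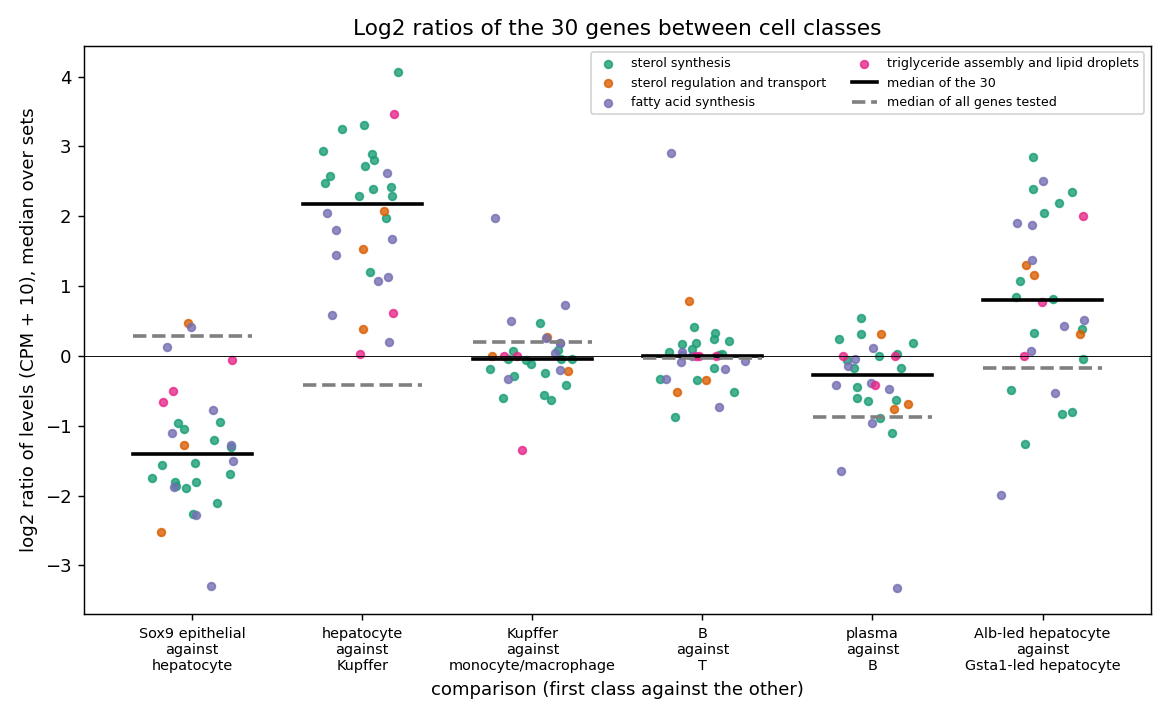
Log2 ratio of levels (after adding 10 CPM, median over sets) of each of the 30 genes in 6 comparisons of cell classes, coloured by role, with the median of the 30 (black) and of all genes tested (grey, dashed). The 30 genes lie mostly below 0 for Sox9 epithelial against hepatocyte, mostly above 0 for hepatocyte against Kupffer, and around 0 in the 3 comparisons of immune classes, where Scd1 stands apart.

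RNA of abundant hepatocyte products differed between the same classes. The 16 secreted and metabolic products used as a gauge of hepatocyte RNA lay in Sox9 epithelial cells at 22.3% to 25.7% of their hepatocyte level by set, and at 0.2% to 6.53% in the classes that are not epithelial. Set against what hepatocyte RNA in that proportion would bring, 17 of the 30 members were above it in Sox9 epithelial cells and 13 at or below it. The levels found pool all 4 sets, whereas the levels to be brought come from sets 2 to 4. No such count was taken over all genes, so 17 of 30 cannot be set against a usual share. Scd1 was found at 143 CPM where 373 CPM would be brought, Hmgcs1 at 132 against 184 CPM and Insig1 at 54.3 against 78.3 CPM. Fdps, at 120 against 121 CPM, and Idi1, at 67.6 against 68.5 CPM, were level with it. Dgat2, at 95.2 against 36.2 CPM, and Srebf2, at 67.4 against 11.8 CPM, lay above it. Its part in the levels of Sox9 epithelial cells was not tested.

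Against Kupffer cells, the resident macrophages of the liver, hepatocyte-like cells had more of every sterol synthesis enzyme. All 15 were at least 2-fold higher in each of the 4 sets. Over all members the count was 20 higher and 0 lower of 26 that passed the filter, while 12.0% of all 5506 genes were higher and 19.9% lower by the same rule. The median log2 ratio was 2.18 for the 30 genes, between 1.85 and 2.96 by set, and -0.42 for all genes. Immediate early genes went the other way, lower in hepatocyte-like cells in every set for 11 of 11 (median log2 ratio -1.63); their part in the result was not tested.

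Fdps had the largest difference: it lay at a median of 17.5 CPM in Kupffer-like cells against 430 CPM in hepatocyte-like cells, a log2 ratio of 4.07 that ranged from 3.58 to 4.39 by set. Dgat2 lay at 3.30 CPM in Kupffer-like cells, a log2 ratio of 3.47, Hmgcs1 at 42.5 CPM, a ratio of 3.31, and Sc5d at 19.7 CPM, a ratio of 3.25. Fdft1 and Idi1 followed with log2 ratios of 2.94 and 2.89. Members past the filter at more similar levels in the 2 classes were Acly at a log2 ratio of 0.20, Srebf2 at 0.38 and Elovl5 at 1.13, all mixed in sign, and Srebf1 at 0.58 and Ebp at 1.20, both higher in hepatocyte-like cells in every set. Insig1 was at 1.53, with 91.8 CPM in Kupffer-like cells, its highest median outside hepatocyte-like cells. The oxysterol receptor Nr1h3, which is not a member, went the other way, with 422 CPM in Kupffer-like cells and a log2 ratio of -2.88.

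Outside hepatocyte-like cells, 6 members had the highest medians in any class. Scd1 was first, in B cell-like cells, at 372, 1101, 661 and 449 CPM in sets 1 to 4. Acly followed at 148 and 132 CPM in cholangiocyte-like cells of sets 3 and 4, and lay at 104, 153, 72.4 and 119 CPM in Kupffer-like cells. Elovl5 lay at 219, 130 and 90.7 CPM in basophil and mast cell-like cells of sets 2 to 4, from 9, 4 and 9 UMIs, so its place there rests on few molecules. Fdps and Hmgcs1 in Sox9 epithelial cells and Srebf2 in plasmacytoid dendritic cells, given above, made up the rest. Plasmacytoid dendritic cells also held Fdps at 209, 49.2, 83.2 and 154 CPM, and were second to hepatocyte-like cells for Idi1, Cyp51, Mvd, Dhcr7 and Elovl6. Pooled over sets, Fdps in these cells was 134 CPM (95% Poisson interval 120 to 149, counting error only), 10.9 times what hepatocyte RNA in the measured proportion would bring. Endothelial cells were second for Stard4, at 89.1, 114, 96.3 and 54.2 CPM, a range inside that of hepatocyte-like cells.

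Scd1, which turns stearate and palmitate into monounsaturated fatty acids, was the 1 member at least 2-fold apart in every set in each of the 3 comparisons of immune classes made here. In B cell-like cells its pooled level was 554 CPM from 4615 UMIs (95% Poisson interval 538 to 570), 10.5 times the 52.8 CPM that hepatocyte RNA would bring. Set 1 alone had B cell-like cells above hepatocyte-like cells, 372 against 349 CPM, and in sets 2 to 4 the order was the other way. Kupffer-like cells came next of the 15 classes, at 193, 379, 232 and 244 CPM, below both hepatocyte-like and B cell-like cells in each set. Every other class had a median of at most 126 CPM. A Scd1 UMI was seen in 46.9% of B cell-like cells and in 12.0% of T cell-like cells, at median depths of 1164 and 1181 UMIs per cell. After each cell was thinned to 500 UMIs, leaving out 892 B cell-like and 103 T cell-like cells below that depth, the shares were 26.5% and 4.87%, with 30.3% in hepatocyte-like cells (91 left out) and 14.4% in Kupffer-like cells (122 left out).

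**Figure D4:**
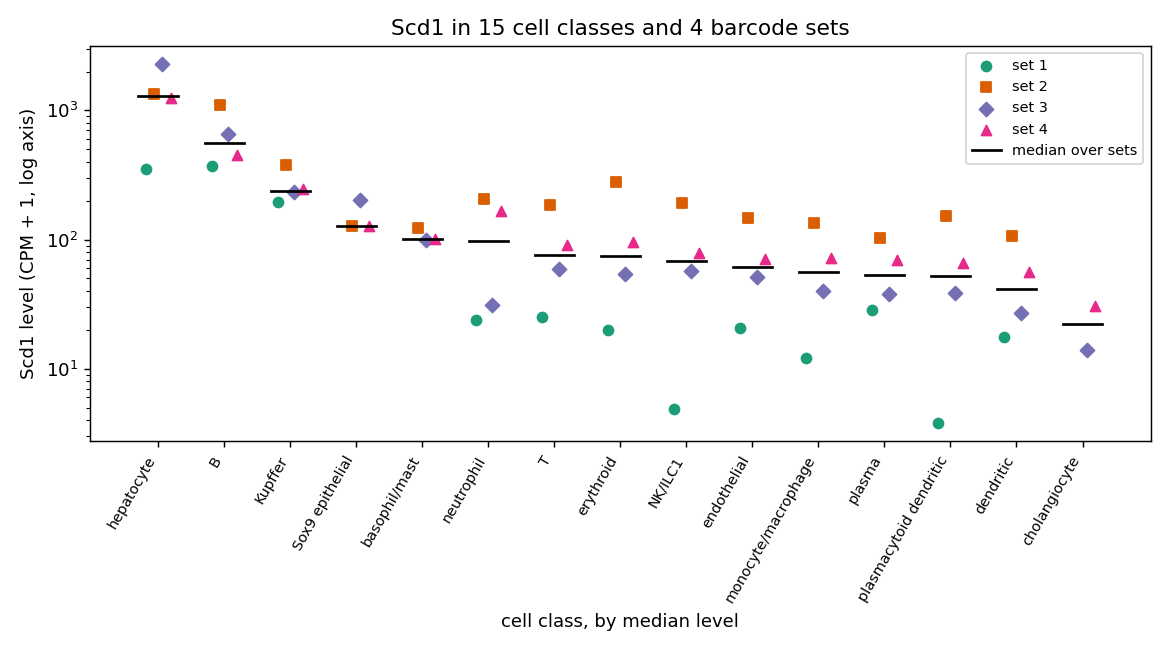
Scd1 level (CPM + 1, log axis) in each of 15 cell classes, ordered by median; each point is 1 barcode set with at least 20 cells and each bar the median over sets. Hepatocyte, B and Kupffer cells lead, at medians of 1293, 555 and 238 CPM, and set 2 is the highest set in most immune classes.

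Between B and T cell-like cells, Scd1 was the 1 member at least 2-fold higher in every set, and 0 were lower, of 13 that passed the filter. By that rule 4.33% of all 4780 genes were higher and 4.69% lower. T cell-like cells held Scd1 at 24.2, 185, 58.7 and 90.4 CPM, and the log2 ratio was 2.90, from 2.19 to 3.48 by set. The median of the 30 genes was 0.00, and that of all genes -0.03. Of the 8 members higher in B cell-like cells in every set, Srebf2 came next after Scd1. It lay at a median of 90.6 against 48.1 CPM, a log2 ratio of 0.78. In the other direction in every set were 7 members. Mvk at -0.88, Elovl6 at -0.73, Stard4 at -0.52 and Ebp at -0.52 had the largest ratios, and Mvk and Elovl6 did not pass the filter. Insig1 at -0.35 and Elovl5 at -0.18 passed it, and Mvd at -0.33 did not. The acyltransferase Dgat1, not a member, was at least 2-fold lower throughout, at a log2 ratio of -1.94.

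Plasma cells, the antibody-secreting descendants of B cells, held less Scd1 than B cell-like cells in every set. Their level was 27.4, 102, 36.8 and 68.5 CPM in sets 1 to 4, and the log2 ratio to B cell-like cells was -3.33, from -3.84 to -2.55. With Elovl5, at 16.8 against 83.9 CPM by median and a log2 ratio of -1.65, it made up the 2 members that met the 2-fold rule downwards, with 0 upwards, of 10 that passed the filter. In this comparison 24.9% of all 3844 genes were lower and 3.17% higher, and the median of all genes was -0.88, below the -0.28 of the 30 members. In all, 13 members were lower in every set. They included Acly at -0.96, Hmgcs1 at -0.89, Srebf2 at -0.76 and Pmvk, which did not pass the filter, at -1.11. Higher in every set were 5 members: Fdps at 0.54, Insig1 at 0.31 and Ebp at 0.18, with Fdft1 and Elovl6, which did not pass the filter. With ratios centred on all genes, the median of the members became 0.57, so their direction in this comparison depends on the scaling.

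Kupffer-like cells differed from the monocyte and macrophage class in the same gene. Scd1 was the 1 member at least 2-fold higher in every set, with 11.2, 134, 39.0 and 71.4 CPM in monocyte and macrophage-like cells and a log2 ratio of 1.97, from 1.43 to 3.26 by set; 0 members were lower, of 12 that passed the filter. Of all 5265 genes, 3.82% were higher and 2.13% lower by that rule. The median of the 30 genes was -0.04 and that of all genes 0.20. Lower in every set were 8 members, led by Dgat2, at 3.30 against 24.4 CPM and a log2 ratio of -1.34. Mvd at -0.63, Msmo1 at -0.60 and Sqle at -0.56 followed. Of the 8, those that passed the filter were Msmo1, Ebp at -0.42 and Pmvk at -0.24. Besides Scd1, Dhcr7 at 0.47 and Acaca at 0.26 were higher in every set, and neither passed the filter. Products of hepatocytes also differed between these classes, at 1.06% to 4.51% of the hepatocyte level in Kupffer-like cells and 0.291% to 3.39% in monocyte and macrophage-like cells. With hepatocyte RNA of that proportion subtracted, the Scd1 ratio was 2.35 here and 3.26 between B and T cell-like cells.

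The hepatocyte-like clusters themselves differed within the pathway. The Alb-led cluster held 671 cells (136, 248, 22 and 265 in sets 1 to 4; median 3150 UMIs per cell), and the Gsta1-led cluster 512 cells (102, 122, 33 and 255; median 1136 UMIs). Since clusters were formed on these same cells, the values are a description. In the Alb-led cluster 8 members were at least 2-fold higher in every set and 1 lower, of 28 that passed the filter, where 8.54% of all 4334 genes were higher and 1.98% lower. The median log2 ratio was 0.80 for the 30 genes and -0.17 for all genes. Other lists moved the same way. In the Alb-led cluster, 8 of 11 immediate early genes were higher in every set (median 1.44). Of 16 abundant hepatocyte products, 8 were at least 2-fold higher (median 1.09). Medians were 1.31 for the other sterol genes and 1.04 for the other fatty acid and glyceride genes. They were 0.83 for 10 fetal and tumour markers and 0.73 for heat shock genes. Lists of periportal and pericentral genes did not move this way, at -0.42 and -0.09. The part of RNA quality or depth in the members' difference was not tested.

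The higher members were 5 enzymes that act on or after squalene, with the fatty acid genes Elovl5 and Srebf1 and with Dgat2. Msmo1 had a log2 ratio of 2.85, Sqle of 2.39, Cyp51 of 2.35, Sc5d of 2.19 and Dhcr7 of 2.05. Msmo1 lay at a median of 282 CPM in the Alb-led cluster against 37.5 CPM in the Gsta1-led cluster, and Sqle at 103 against 12.7 CPM. Of the later enzymes that missed the rule, Fdft1 was at 0.85, Ebp at 0.82, Lss at 1.08 and Nsdhl at -0.04. Among the mevalonate enzymes, Pmvk, at -1.26, and Mvd, at -0.81, were lower in the Alb-led cluster in every set, Idi1 was at -0.49, and Fdps, at -0.83, Hmgcs1, at 0.38, and Mvk, at 0.33, were mixed in sign. Whether the arms of the route differ beyond the spread of their genes was not tested. Scd1 was higher in the Alb-led cluster in every set, with a log2 ratio of 2.51 that ran from 0.70 in set 2 to 4.12 in set 1, and so missed the 2-fold rule. Thrsp was the 1 member at least 2-fold lower, at a median of 21.6 against 109 CPM and a log2 ratio of -1.99. In set 3 the Gsta1-led cluster held 31193 UMIs, so that 3 UMIs there equal 96.2 CPM, and ratios of set 3 for genes of lower level carry little information. Clustering without the members and the other pathway genes gave the same counts, 8 higher and 1 lower, and without set 4 the counts were 9 and 2.

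**Figure D5:**
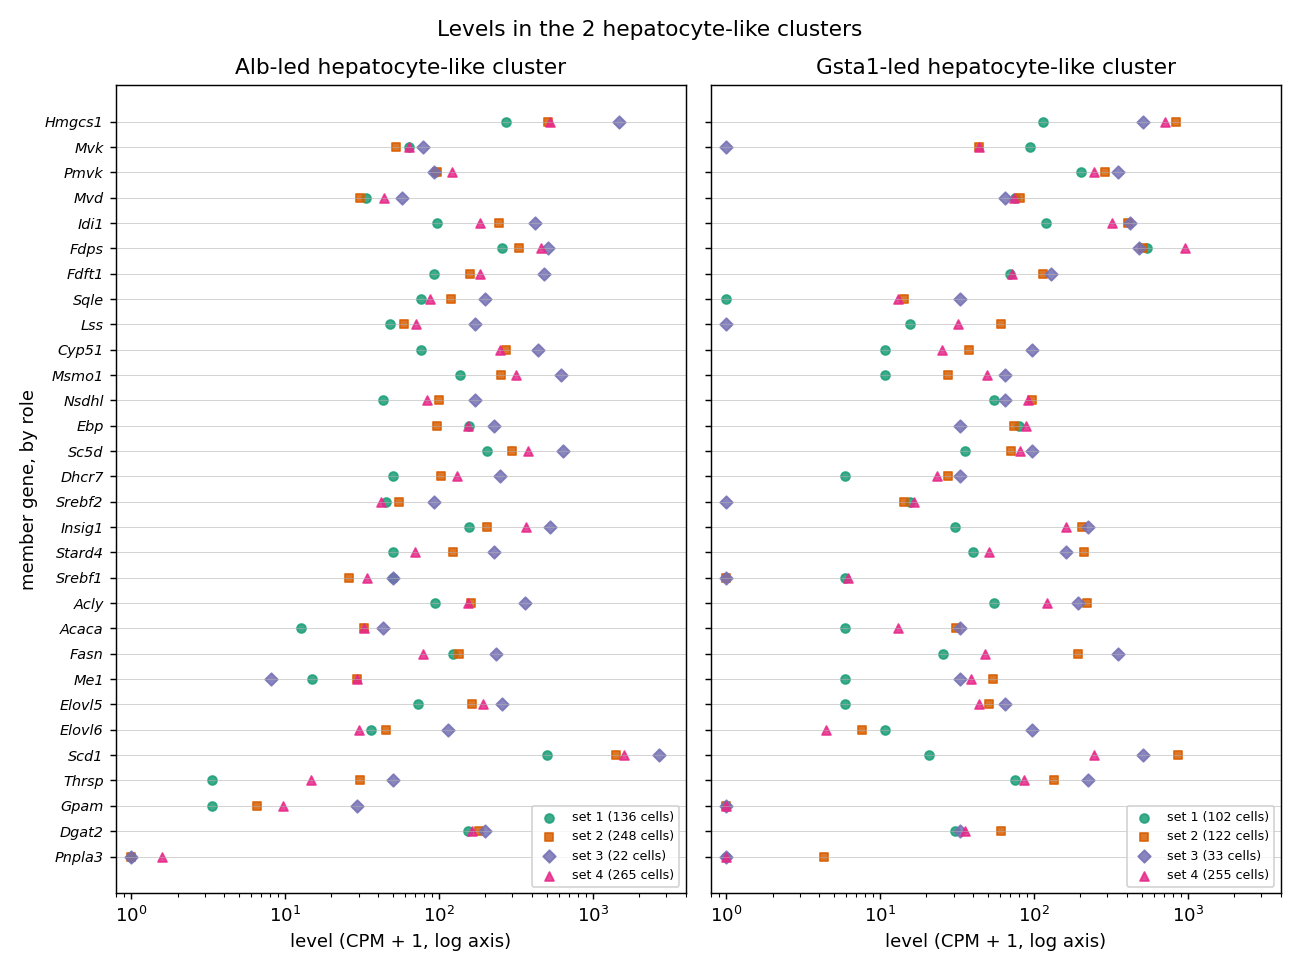
Level of each of the 30 genes (vertical axis) in each barcode set, on a log CPM + 1 axis, in the Alb-led (left) and the Gsta1-led (right) hepatocyte-like cluster; each point is 1 set. Msmo1, Sqle, Cyp51, Sc5d and Dhcr7 lie further right in the Alb-led cluster, Pmvk, Mvd and Thrsp further right in the Gsta1-led cluster.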

How the data were processed

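Per the submitters' processing notes, reads were handled with CASAVA 1.8, Cell Ranger and Seurat on mm10; sources used here give no further settings. The authors deposited 1 table of natural log values, ln(1 + UMIs of a gene per 10000 UMIs of the cell). Per-cell UMI counts were recovered from it: 100% of values were whole multiples of 1 UMI, within 0.001. The members and gene lists were chosen with earlier results of these data known. Cells (at least 201 genes each) were clustered with scanpy 1.11.5 and Leiden (leidenalg 0.10.2, resolution 1.0, 2000 variable genes, 30 components, 15 neighbours). A cluster was named for the marker list with the highest mean log2 enrichment if this was at least 1.5, the next list was under 0.7 of it and 3 markers were detected. Scrublet marked 9 of 24802 cells as doublets, too few to have worked, so doublets were kept. UMIs were summed per class and set; ratios used a pseudocount of 10 CPM, a filter of 20 CPM and a 2-fold rule in every usable set, with no test, since sets are not mapped to samples. The ratio code was tested on simulated data. Intervals are exact 95% Poisson. Every member is named; values per set are given for the 6 members highest in hepatocyte-like cells, the 6 highest outside, and, in each comparison, up to 6 with the largest ratio of 1 sign in every set, some of these as medians and ranges. Gene positions are from GENCODE vM21 (GRCm38).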

Additional observations from a re-analysis of the deposited data

How the results depend on the processing

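Ratios were taken within each barcode set, so classes were paired by set. No paired test was made, because the sets are not mapped to samples and carry no replicate number. Medians over members moved with the pseudocount. At 1 CPM they were -1.75 (Sox9 epithelial against hepatocyte), 3.21 (hepatocyte against Kupffer) and -0.72 (plasma against B), and at 50 CPM -0.88, 1.17 and -0.08; the counts past 2-fold at 50 CPM were 9 lower, 8 higher and 1 lower. A filter of 100 CPM, with medians only over members that passed it, gave -1.75 (Sox9 epithelial against hepatocyte) and 2.85 (hepatocyte against Kupffer). In the 3 immune comparisons it gave 1.97 (Kupffer against monocyte and macrophage), 2.90 (B against T) and -3.33 (plasma against B). These values are the ratios of Scd1 and not a shift of the 30 genes, whose medians were -0.04, 0.00 and -0.28. Counts under this filter were 8 lower, 7 higher and, for plasma against B, 1 lower. Between the hepatocyte-like clusters it left 5 higher and 0 lower, and in hepatocyte-like cells 15 members were highest in set 3. With all genes centred, medians were -1.73, -0.23 (Kupffer against monocyte and macrophage), 0.03 (B against T) and 0.57 (plasma against B), the last with 1 member higher and 1 lower. Less hepatocyte RNA, medians were -0.16, -0.08 and -0.06 for the 3 immune comparisons, with 1 member higher in plasma cells; this was not run between epithelial classes. With no filter, 1 member was lower in Kupffer-like cells. Between the hepatocyte-like clusters 2 members were lower with cells of at least 500 genes, doublet calls removed, a mean over cells, a pseudocount of 1 CPM or without set 4. Removing the doublet calls took out only 9 cells before clustering anew, so it cannot show how far the results depend on doublets. Leaving out a set gave medians between -1.53 and -1.32, 1.95 and 2.33, -0.04 and 0.00, -0.41 and -0.17, and 0.63 and 1.02 in the comparisons whose median was not 0, and for the hepatocyte-like clusters 7 to 10 members higher and 1 to 2 lower. Against the Alb-led cluster alone, chosen after seeing the data, the median of Sox9 epithelial cells was -1.49, with 17 members lower; 26 members were highest in set 3. No named member that met the 2-fold rule changed sign under these alternatives. Among the sets of hepatocyte-like cells, set 3 held the fewest UMIs, 172824. Kupffer-like cells of set 3 were also few, at 73 cells with a median of 691 UMIs. Ratios between these classes in set 3 therefore rest on few molecules.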

Other observations

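Other genes of these pathways, 39 in all, were less often highest in hepatocyte-like cells than the members described above, although that difference was not tested: 8 of the 15 other sterol genes and 8 of the 22 other fatty acid and glyceride genes that reached 20 CPM in a class were highest there. Nr1h3, the receptor that senses oxysterols, led in Kupffer-like cells of every set (404, 731, 434 and 409 CPM), against 28.9 to 93.5 CPM in hepatocyte-like cells.

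Mylip, an E3 ligase that degrades lipoprotein receptors, was near 0 in hepatocyte-like cells, at 11.1, 5.72, 0 and 5.62 CPM, and lay at 287, 390, 325 and 169 CPM in endothelial cells. Its highest median, 912 CPM, was in basophil and mast cell-like cells, with endothelial cells second. Dgat1 and Dgat2, which carry out the same last step of triglyceride synthesis, differed in their cells: Dgat1 was highest in natural killer and innate lymphoid cells, at 263, 429, 276 and 153 CPM, and lay at 18.1 to 34.7 CPM in hepatocyte-like cells, where Dgat2 lay at 114 to 168 CPM. Scap, the escort of the sterol regulatory factors, had its highest median, 69.5 CPM, in plasmacytoid dendritic cells, the class that also led for Srebf2.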
